A study of Mus musculus with 4 samples.

Results

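Gm10260, Pianp, Gm8797, Pbx4 and Gm10503 were 5 of the 32285 genes counted in spatial transcriptomes of mouse tumors, and were chosen by name because their measured levels separated the sections of 2 host strains. The values that chose them are therefore given as a description. Tests on the 5 genes are given for where in a section their UMIs lay, which the choice did not use, and tests between strains for their near copies, neighbours and related genes. The data came from 4 fresh frozen sections of 4 tissue blocks, labelled biological replicates, on Visium slides, in which barcoded spots capture the mRNA of the tissue above them and a UMI (unique molecular identifier) marks 1 captured molecule. All 4 held MC38, a colon carcinoma line of C57BL/6 origin, injected under the skin (500000 cells) of female F1 mice aged 8 to 12 weeks. The hosts were C57BL/6J x CC075/UncJ (CC075F1, 2 sections) and C57BL/6J x CC080/TauUncJ (CC080F1, 2 sections), so that every host carried 1 C57BL/6J genome copy and 1 from a Collaborative Cross strain, a recombinant inbred line descended from several founder strains. Each mouse had received a single intraperitoneal injection of 200 µg of isotype control antibody (clone 2A3) once its tumor measured 75 to 110 mm3 and was killed 48 hours later, and no checkpoint inhibitor was given to any of them.

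The injected tumor cells were the same line in both strains, while blood vessels, fibroblasts and immune cells came from the host. All reads were aligned to 1 reference built from C57BL/6J, whatever alleles the host carried. A spot covers several cells, so fewer cells of a type and less RNA per cell cannot be told apart. In these sections the 35 host markers (immune, fibroblast and endothelial genes) made up 0.718 to 0.879% of the UMIs. The immune share was higher in both CC075F1 sections (0.647 and 0.674%) than in both CC080F1 sections (0.409 and 0.490%), while the fibroblast share was lower (0.114 and 0.192% against 0.265 and 0.290%). Each share is a sum over its list. The abundant Lyz2 and Col3a1 followed it, but not every marker did. Per 1000000 UMIs, Itgam (21.6 and 21.6 against 35.0 and 30.4) and Cd14 (17.5 and 19.7 against 22.8 and 20.1) were lower in CC075F1. Col1a1 (45.0 and 119 against 57.7 and 111) overlapped between strains. The part of these differences in the levels below was not tested.

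By known role the genes fall into 3 kinds. Pianp encodes a membrane glycoprotein, PILR-associating neural protein, that binds the paired immunoglobulin-like receptor PILRα of myeloid cells, and Pbx4 encodes a homeodomain transcription factor of the TALE homeobox class, best known from the testis. Gm10260 and Gm8797 are single-exon genes whose sequences are near copies of Rps18, a protein of the small ribosomal subunit, and of Ubb, a polyubiquitin gene. Retrocopies of this kind arise when a spliced mRNA is copied back into the genome. Gm10503 is annotated as an antisense RNA and has no described function known here.

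The 5 genes lie on 5 chromosomes (GRCm38, GENCODE vM21). Gm10260 (ENSMUSG00000069117) spans chromosome 13, 97760072 to 97760632, on the minus strand, inside the lincRNA Gm26619 on the plus strand. Pianp (ENSMUSG00000030329) spans chromosome 6, 124996694 to 125003096, on the plus strand. Gm8797 (ENSMUSG00000103034) spans chromosome 3, 5750806 to 5751295, on the plus strand, with no other gene of the table nearer than 129537 bp. Pbx4 (ENSMUSG00000031860) spans chromosome 8, 69832491 to 69872292, on the plus strand, 1389 bp from Lpar2. Gm10503 (ENSMUSG00000117786, named AC165951.1 in that release) spans chromosome 17, 30920338 to 30963220, on the minus strand and overlaps Glp1r, Umodl1 and Gm41562 on the plus strand.

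The sequences of the 2 copies are shown because they bear on what a UMI of these genes can mean. Over 545 aligned bases the transcript of Gm10260 was 99.1% identical to that of Rps18, with 5 substitutions, and over 540 bases it was 98.7% identical to Gm11361, a second Rps18 copy on chromosome 13 at 28257528 to 28258134. The substitutions, given as the Rps18 base, the position from 1 at the start of the Gm10260 transcript and the Gm10260 base, were T230C, A381C, G415A and G475A in the coding part and G521C after it, and 2 of the coding ones change the encoded amino acid. They lie 331, 180, 146, 86 and 40 bases before the end of the 561-base transcript. The last 279 of the 459 coding bases are printed here for both genes, from GENCODE vM21 transcripts (Gm10260 on chromosome 13 as above, Rps18 on chromosome 17, 33951999 to 33956001, minus strand), with the differing bases in capitals.
Gm10260: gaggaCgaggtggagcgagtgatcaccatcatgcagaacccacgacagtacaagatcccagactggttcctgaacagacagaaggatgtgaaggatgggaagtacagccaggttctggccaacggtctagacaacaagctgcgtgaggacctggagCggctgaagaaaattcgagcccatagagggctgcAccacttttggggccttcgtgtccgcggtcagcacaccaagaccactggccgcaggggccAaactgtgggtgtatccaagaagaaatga
Rps18: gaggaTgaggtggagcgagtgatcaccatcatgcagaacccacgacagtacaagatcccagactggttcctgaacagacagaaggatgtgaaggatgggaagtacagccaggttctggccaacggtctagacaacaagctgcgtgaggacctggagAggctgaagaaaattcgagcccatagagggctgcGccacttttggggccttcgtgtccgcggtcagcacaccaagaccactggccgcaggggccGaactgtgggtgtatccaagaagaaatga

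Gm8797 was 98.2% identical over 384 aligned bases to the end of the Ubb transcript. Counted in the same way along the 490-base Gm8797 transcript, the differences from Ubb were T141C, G143A, C167T, T173C, A248G and T263C, all in the coding part and none of them changing the encoded amino acid. After the coding part, up to position 481 where the alignment ended, there was no substitution and 1 base of Ubb was missing from Gm8797, after position 443. The coding part of Gm8797 (234 bases, 77 codons before the stop) is printed beside the matching stretch of Ubb (chromosome 11, 62551171 to 62553213, plus strand), with the differing bases in capitals.
Gm8797: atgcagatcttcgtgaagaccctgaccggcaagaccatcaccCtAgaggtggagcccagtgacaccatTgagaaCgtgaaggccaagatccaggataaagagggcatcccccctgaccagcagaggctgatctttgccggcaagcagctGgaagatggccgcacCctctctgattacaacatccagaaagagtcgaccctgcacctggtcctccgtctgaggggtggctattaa
Ubb: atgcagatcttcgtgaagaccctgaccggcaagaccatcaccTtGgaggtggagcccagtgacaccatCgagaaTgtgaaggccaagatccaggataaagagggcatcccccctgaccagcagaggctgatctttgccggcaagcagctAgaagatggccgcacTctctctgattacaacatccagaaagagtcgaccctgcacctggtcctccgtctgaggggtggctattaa
UMIs of Gm10260 and Gm8797 are therefore uncertain, because reads from a near-identical gene can be counted as theirs, or theirs as its own. Pianp, Pbx4 and Gm10503 had no such partner among the genes of the table (at least 80% identity over at least 50% of the transcript).

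Pianp, Gm10503, Pbx4 and Gm8797 had more UMIs in CC075F1 and Gm10260 had more in CC080F1. Levels are UMIs per 1000000 UMIs of the section (CPM), with section totals from 82594649 to 146460975 UMIs. In the tables as a whole, 14 of 15572 genes tested (0.0899%) passed the strain comparison (edgeR quasi-likelihood, adjusted p below 0.05), and all 5 of these genes were among them. They were selected on that contrast, so nothing is read from the count.

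Pianp was counted 360 and 391 times in CC075F1 replicates 1 and 2 (4.36 and 2.67 CPM) and 9 and 6 times in CC080F1 replicates 1 and 2 (0.0962 and 0.0532 CPM). Its mean was 3.51 ± 1.19 CPM against 0.0747 ± 0.0304 CPM (SD, n = 2 each), a 47.0-fold difference, and the strains did not overlap. Gm10503 was counted 147 and 361 times in CC075F1 (1.78 and 2.46 CPM) and not once in either CC080F1 section. Against the 3 UMIs per section that a count of 0 allows (0.0321 and 0.0266 CPM), its mean of 2.12 ± 0.484 CPM (SD, n = 2) in CC075F1 was at least 72.3-fold higher. Pbx4 was counted 164 and 199 times in CC075F1 (1.99 and 1.36 CPM) and 11 and 16 times in CC080F1 (0.118 and 0.142 CPM), a 12.9-fold difference between the means.

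The retrocopies differed in opposite directions. Gm8797 was counted 913 and 1796 times in CC075F1 (11.1 and 12.3 CPM) and 199 and 155 times in CC080F1 (2.13 and 1.38 CPM), which was 6.66-fold between means of 11.7 ± 0.855 and 1.75 ± 0.531 CPM (SD, n = 2 each). Gm10260 was counted 56 and 83 times in CC075F1 (0.678 and 0.567 CPM) and 1118 and 1798 times in CC080F1 (11.9 and 16.0 CPM), which was 22.4-fold. For Gm10260, Pianp, Gm8797 and Pbx4 the strain with fewer UMIs still held some in both of its sections, and for Gm10503 it held none. The lower section of the higher strain stood 5.20-fold (Gm8797) to 27.8-fold (Pianp) above the higher section of the other strain among these 4 genes.

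**Figure D1:**
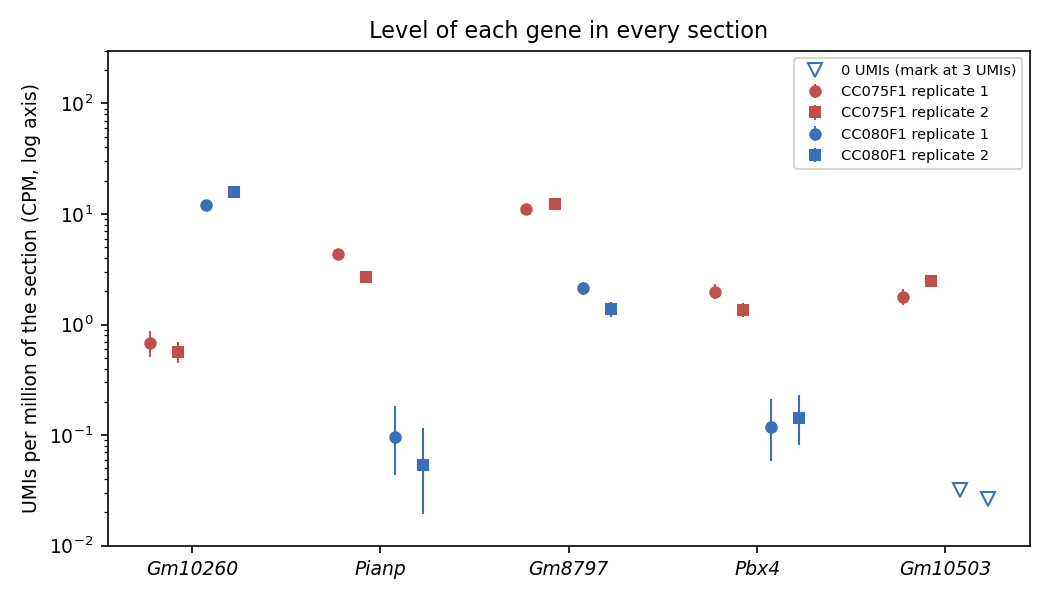
UMIs per 1000000 UMIs of the section (log axis) for each gene in the 4 sections, red for CC075F1 and blue for CC080F1, circles for replicate 1 and squares for replicate 2. Bars are exact 95% Poisson intervals of the count, and open triangles mark sections with 0 UMIs, drawn at the level of 3 UMIs; Gm10260 alone is higher in blue.

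The copies' partners did not follow the same pattern. Rps18 stood at 3167 and 4238 CPM in CC075F1 and at 3116 and 3046 CPM in CC080F1, a log2 fold change (CC075F1 over CC080F1) of 0.64 ± 0.50 (SE) that did not pass the test (edgeR adjusted p = 0.831). It was 0.09 without CC075F1 replicate 2, 1.04 without CC075F1 replicate 1 and 0.27 with library size alone. For each 1000 Rps18 UMIs there were 0.214 and 0.134 Gm10260 UMIs in CC075F1 and 3.83 and 5.24 in CC080F1, so the UMIs assigned to Gm10260 were in every section a small part of those assigned to Rps18. Gm11361, the other Rps18 copy, also had fewer UMIs in CC075F1 (1.82 and 2.74 CPM) than in CC080F1 (7.89 and 8.38 CPM). Its log2 fold change was -1.44 ± 0.39 (SE), and it did not pass the test (edgeR adjusted p = 0.523), although it passed with DESeq2, with the replicate number as a block and without a filter on low counts. Relative to Rps18 it stood at 0.573 and 0.648 UMIs per 1000 in CC075F1 and 2.53 and 2.75 in CC080F1.

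Ubb stood at 615 and 513 CPM in CC075F1 and at 608 and 654 CPM in CC080F1, with a log2 fold change of 0.15 ± 0.30 (SE, edgeR adjusted p = 0.920) that turned to -0.16 when counts were scaled by library size alone. For each 1000 Ubb UMIs there were 18.0 and 23.9 Gm8797 UMIs in CC075F1 and 3.50 and 2.10 in CC080F1. How many reads moved between these genes was not tested, since reads were not analysed here.

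The neighbours of the 5 genes were next compared between strains. Of 24 genes that flank or overlap them (the nearest 2 on each side and any overlapping gene), 12 had enough UMIs to test and none passed (edgeR), while 2 (Dnah8 and Gm5086) had an unadjusted p below 0.05 and Gm5086 passed with DESeq2, with the replicate number as a block and without a filter on low counts. Gm5086, a lincRNA 176076 bp from Gm10260, was at 2.99 and 1.64 CPM in CC075F1 and 1.19 and 0.728 CPM in CC080F1, the opposite order to Gm10260 (log2 fold change 1.55 ± 0.39, SE, edgeR adjusted p = 0.430). Around Pianp the fold changes of Cops7a, Mlf2 and Zfp384 ran from -0.20 to 0.43 on the log2 scale, and around Pbx4 those of Lpar2, Gmip and Yjefn3 from -0.55 to -0.09. Pex2, the single testable neighbour of Gm8797, stood at 0.07 on that scale. Of the neighbours of Gm10503, Dnah8, 42973 bp away, stood at 1.31 (edgeR adjusted p = 0.830), the same direction as Gm10503, and Abcg1 at -0.09. Glp1r, which encodes the GLP-1 receptor and overlaps Gm10503 on the opposite strand, had 17 and 5 UMIs in CC075F1 and 7 and 3 in CC080F1, against the 147 and 361 of Gm10503. Whether the counting used strand was not stated in the sources used here for these overlapping pairs. How far reads of Gm10503 and Glp1r, or of Gm10260 and Gm26619, were kept apart was therefore not checked. Gm26619 was at 1.55 and 1.04 CPM in CC075F1 and 1.60 and 1.84 CPM in CC080F1 (edgeR adjusted p = 0.943), so the gene around Gm10260 did not show its 22.4-fold difference.

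Genes related to Pianp and Pbx4 by function were followed through lists. The PILR list held 3 genes beside Pianp, the receptors Pilra, Pilrb1 and Pilrb2, and none passed the strain test (edgeR), although 2 had an unadjusted p below 0.05, also with DESeq2, and Pilrb2 passed without a filter on low counts (edgeR adjusted p = 0.0431). Pilrb1 was at 2.37 and 3.56 CPM in CC075F1 and 1.29 and 2.02 CPM in CC080F1, Pilrb2 at 3.01 and 4.34 CPM against 1.76 and 2.33 CPM. Pilra, which encodes the inhibitory receptor that PIANP binds, was at 21.0 and 17.4 CPM against 19.5 and 15.8 CPM, and its strains overlapped. The median log2 fold change of the 3 was 1.22, beside -0.02 for all genes tested. Pilrb1 and Pilrb2 stood at 0.55 and 0.60 without CC075F1 replicate 2. The TALE list held 11 genes beside Pbx4, of which none passed, or had an unadjusted p below 0.05, with edgeR or DESeq2. Their median log2 fold change was -0.15, and Pbx3 and Pbx2 stood at -0.15 and -0.06 on that scale, where Pbx4 stood 12.9-fold apart.

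Within a section the UMIs of all 5 genes were scattered thinly over the whole tissue. Pianp had at least 1 UMI in 12.2% (95% interval 10.97 to 13.5%) and 10.96% of spots in CC075F1 replicates 1 and 2 and in 0.323 and 0.189% in CC080F1 replicates 1 and 2 (exact Clopper-Pearson intervals, which cover counting error only, as do all intervals and limits here). Gm8797 was seen in 28.5 and 40.8% of spots in CC075F1 and 6.89 and 4.69% in CC080F1, and Pbx4 in 5.61 and 5.74% against 0.395 and 0.504%. Gm10260 was seen in 2.07 and 2.50% of spots in CC075F1 and 31.7 and 39.7% in CC080F1. Gm10503 was seen in 5.32 and 10.0% of spots in CC075F1 and in 0 of 2787 and 0 of 3174 spots in CC080F1, which allows shares of up to 0.108 and 0.0945% by the limit of 3 counts used for all zeros here. No spot held more than 8 UMIs of any of them, and in the CC080F1 sections no spot held more than 1 of Pianp or Pbx4.

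**Figure D2:**
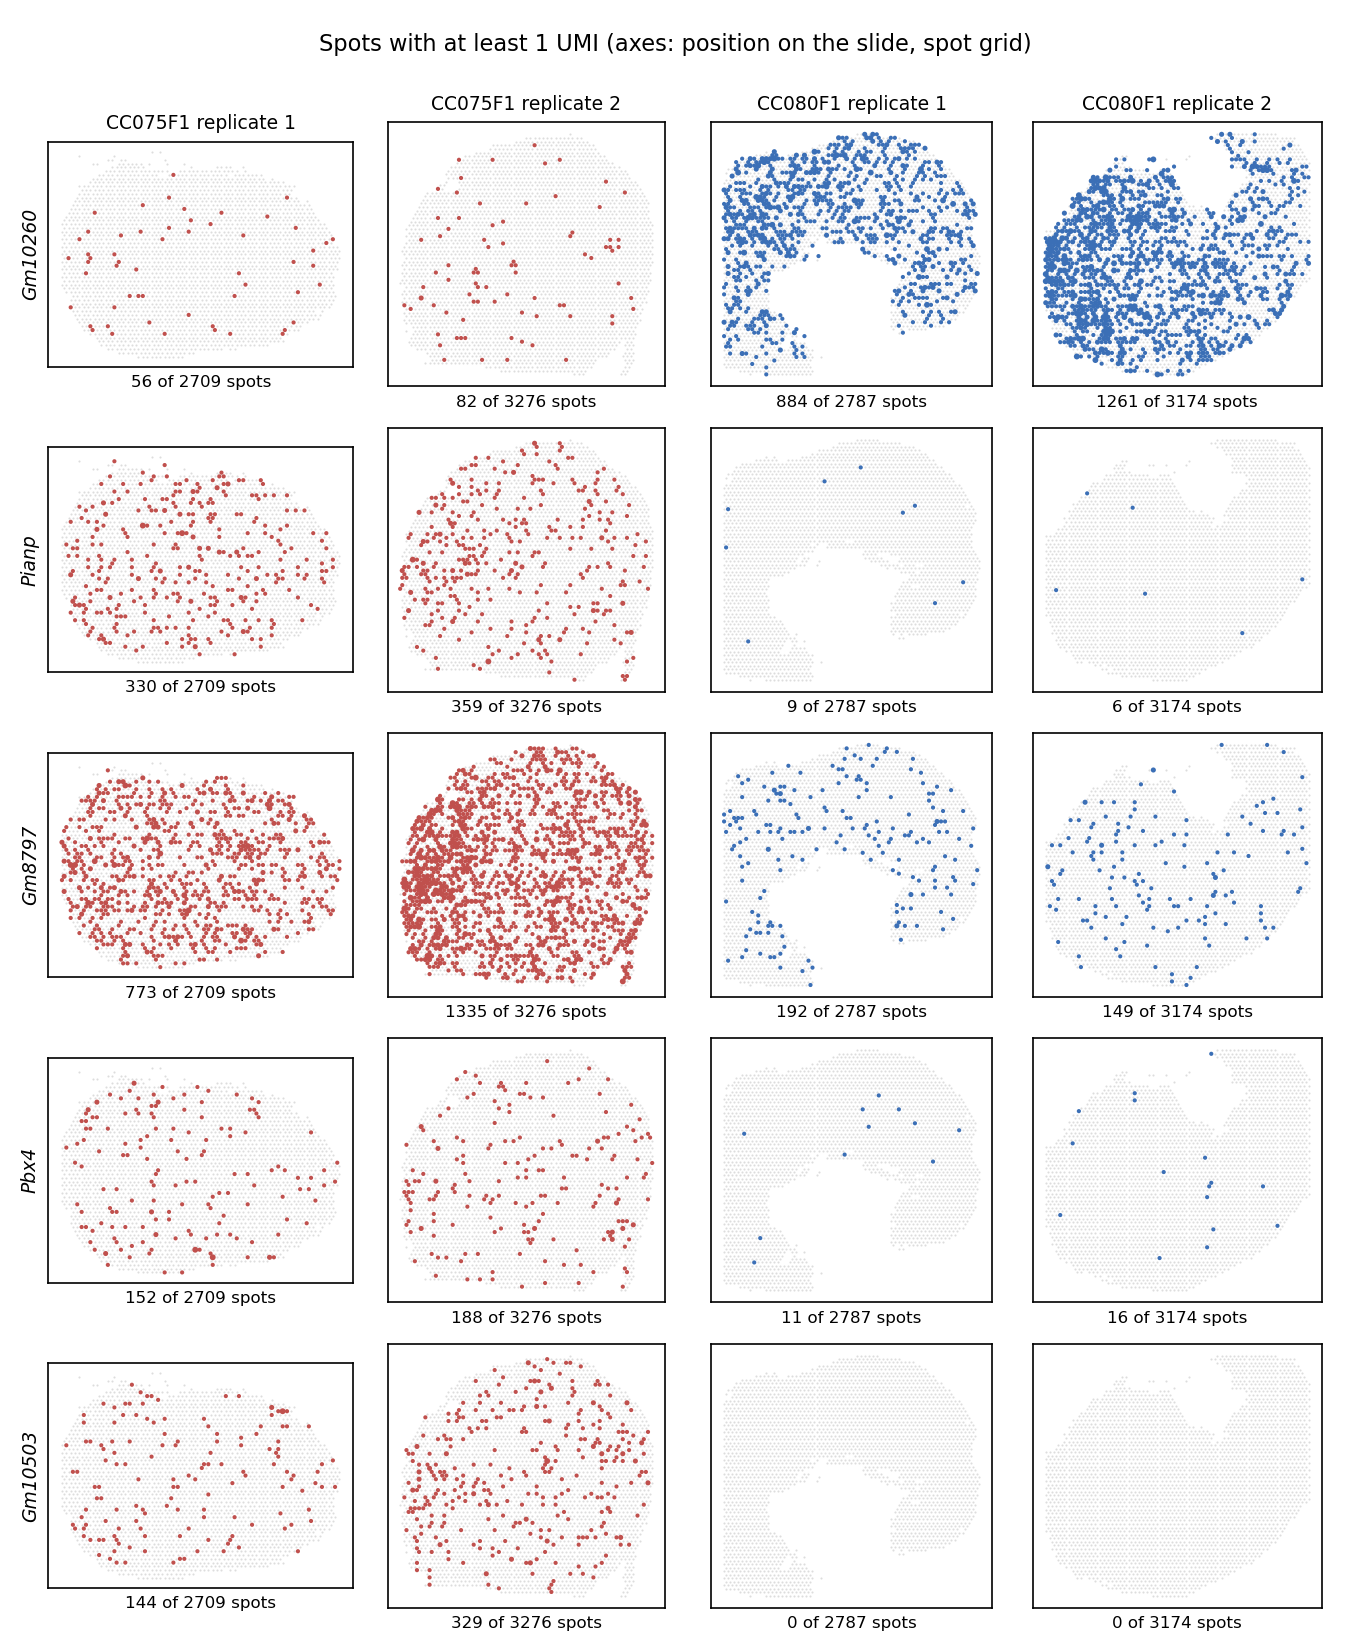
Positions of spots with at least 1 UMI of each gene (rows) in each section (columns) on the grid of the slide, coloured over the remaining spots in grey, with larger points for more UMIs and the number of positive spots under each map. Positive spots lie across each section in the strain with more UMIs (1335 of 3276 for Gm8797 in CC075F1 replicate 2), and Gm10503 has none in either CC080F1 section.

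These shares were close to what an even spread would give. If each gene made up the same part of the UMIs in every spot, Pianp would be seen in 12.3 and 11.1% of spots in CC075F1, Gm8797 in 28.0 and 40.4%, and Gm10260 in 32.5 and 41.3% of spots in CC080F1. Over the 18 combinations of gene and section with any UMI, the observed and even shares differed by at most 1.55 percentage points, and the variance over spots was 0.971 to 1.14 times that of an even spread. Moran's I, which compares each spot with its 6 neighbours on log2(CPM + 1), ran from -0.0164 to 0.0655. Col1a1, a fibroblast gene that lies in patches, differed from its even share by 18.0 to 42.7 points and had a Moran's I of 0.232 to 0.551. Ifi202b, an interferon-inducible gene counted in CC080F1 sections and at 0 UMIs in both CC075F1 sections, lay between, with a Moran's I of 0.109 and 0.178. Ptprc, the general leukocyte marker CD45, had a Moran's I of 0.0393 to 0.0736 and a gap of 0.599 to 2.41 points, a range that holds Gm10260 in the CC080F1 sections (Moran's I of 0.0618 and 0.0655, gap of up to 1.55 points). At such low counts a patchy gene and an even one look more alike, so a weak pattern was not detectable at this depth. A small gap does not show an even spread either. Gm8797 in CC075F1 replicate 2 was seen in 40.8% of spots against an even 40.4%. It nevertheless stood at 20.2 CPM within 3 steps of the tissue edge and at 11.1 CPM farther in.

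**Figure D3:**
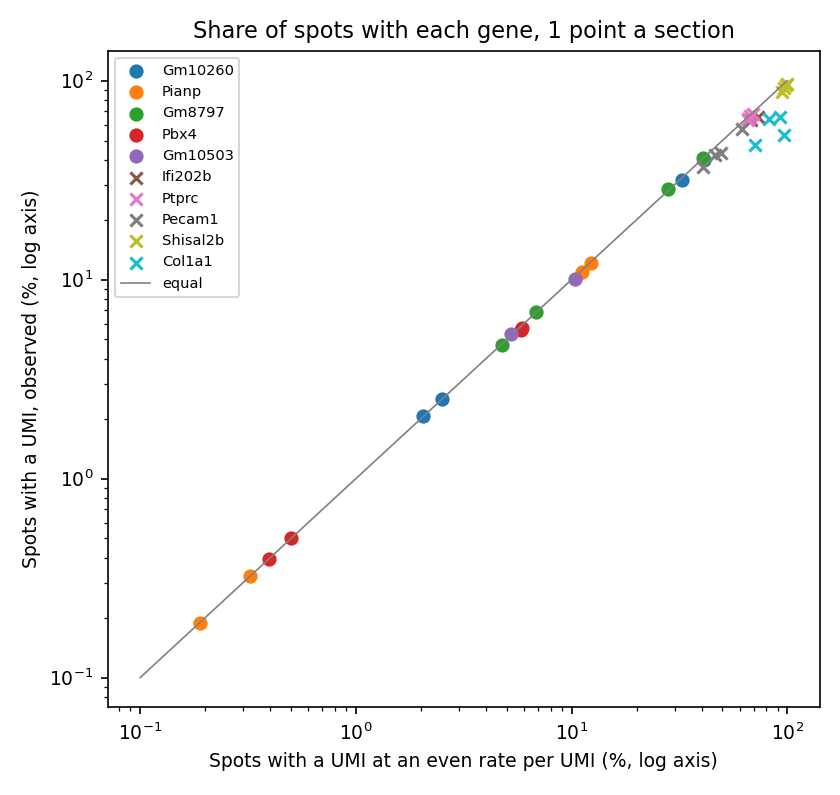
Share of spots with at least 1 UMI (vertical, log axis) against the share an even rate per UMI would give (horizontal, log axis), 1 point for each gene and section with any UMI, circles for the 5 genes and crosses for 5 other genes. The circles lie on the line of equality to within 1.55 points, while Col1a1 falls 18.0 to 42.7 points below it.

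Whether the genes followed the host-marker share of spots was then tested within sections. The spots of each section were ranked by their share of host-marker UMIs and split into 3 bins of equal size, and the highest bin (host-rich) was compared with the lowest (host-poor), with the section as a block (edgeR). All 5 genes had a fitted fold change above 0 in the host-rich bin, and none passed the test. Of 14422 genes tested, 8.09% were called higher in the host-rich bin, against 0 of these 5, of which Gm8797 had an unadjusted p below 0.05 with edgeR and none had with DESeq2. In the CC080F1 sections Gm10503 had 0 UMIs, Pianp 9 and 6, and Pbx4 11 and 16, too few for a test there alone. With the CC075F1 sections alone, which held most of their UMIs, 0 of 13767 genes were called (edgeR). The share of 8.09% came from sections of both strains, so it is not a like background for Gm10503, Pianp and Pbx4. The median log2 fold change of the 5 was 0.46 and that of all genes -0.02, with 45.5% of all genes above 0.

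Pianp went between the host-poor and the host-rich bin from 3.19 to 5.27 CPM and from 1.69 to 4.51 CPM in the CC075F1 sections, and its few UMIs in CC080F1 went from 6 to 3 and from 0 to 3. Its log2 fold change of 0.75 ± 0.36 (SE) did not pass (edgeR adjusted p = 0.183). Gm8797 went from 9.99 to 11.2 CPM and from 7.60 to 20.6 CPM in CC075F1 and from 1.98 to 2.33 CPM and from 1.11 to 1.60 CPM in CC080F1, with more in the host-rich bin in 4 of 4 sections and a log2 fold change of 0.46 ± 0.19 (SE, edgeR adjusted p = 0.131). Much of its change came from CC075F1 replicate 2: without that section its log2 fold change was 0.17. Gm10503 went from 1.68 to 2.01 CPM and from 1.55 to 3.79 CPM in the 2 CC075F1 sections (log2 fold change 0.58 ± 0.31, SE, edgeR adjusted p = 0.256). It too moved most in replicate 2, and stood at 0.19 without it. Pbx4 went from 1.79 to 2.58 CPM and from 0.936 to 2.39 CPM in CC075F1, and had 3 and 4, and 7 and 2, UMIs in these bins of the CC080F1 sections (log2 fold change 0.46 ± 0.35, SE, edgeR adjusted p = 0.383).

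Gm10260 went from 10.7 to 13.4 CPM and from 12.8 to 19.2 CPM in the CC080F1 sections, where it was abundant, and from 0.752 to 0.758 CPM and from 0.581 to 0.640 CPM in CC075F1. Its log2 fold change over all 4 sections was 0.19 ± 0.13 (SE, edgeR adjusted p = 0.326). It passed in the CC080F1 sections taken alone (log2 fold change 0.33, edgeR adjusted p = 0.0127), where 12.6% of all genes were called higher, and without CC075F1 replicate 2 (0.31, edgeR adjusted p = 0.0495), where 12.3% were. Without CC080F1 replicate 2 it stood at 0.023. In the CC075F1 sections alone its sign turned (-0.10), although its CPM, without the scaling of the fit, rose slightly in both. Rps18 went the other way, from 3310 to 2915 CPM and from 3386 to 2729 CPM in CC080F1, with a log2 fold change over 4 sections of -0.46 ± 0.11 (SE, edgeR adjusted p = 0.0440) that no longer passed with DESeq2 or without CC075F1 replicate 1 or either CC080F1 section. So the UMIs of Gm10260 per 1000 of Rps18 were not constant in a section: in CC080F1 they went from 3.23 to 4.60 and from 3.77 to 7.05 between the host-poor and the host-rich bin. Those of Gm11361 went from 2.28 to 2.55 and from 2.40 to 3.24. Gm8797 per 1000 Ubb UMIs went from 17.0 to 17.5 and from 15.3 to 36.9 in CC075F1. Ifi202b, whose UMIs came from CC080F1 alone, had a log2 fold change of 0.75 ± 0.07 (SE, edgeR adjusted p = 0.0252) in the same comparison, and lost its call without either CC080F1 section. Without either of those sections no gene at all was called, so these losses are not particular to Ifi202b or Rps18.

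**Figure D4:**
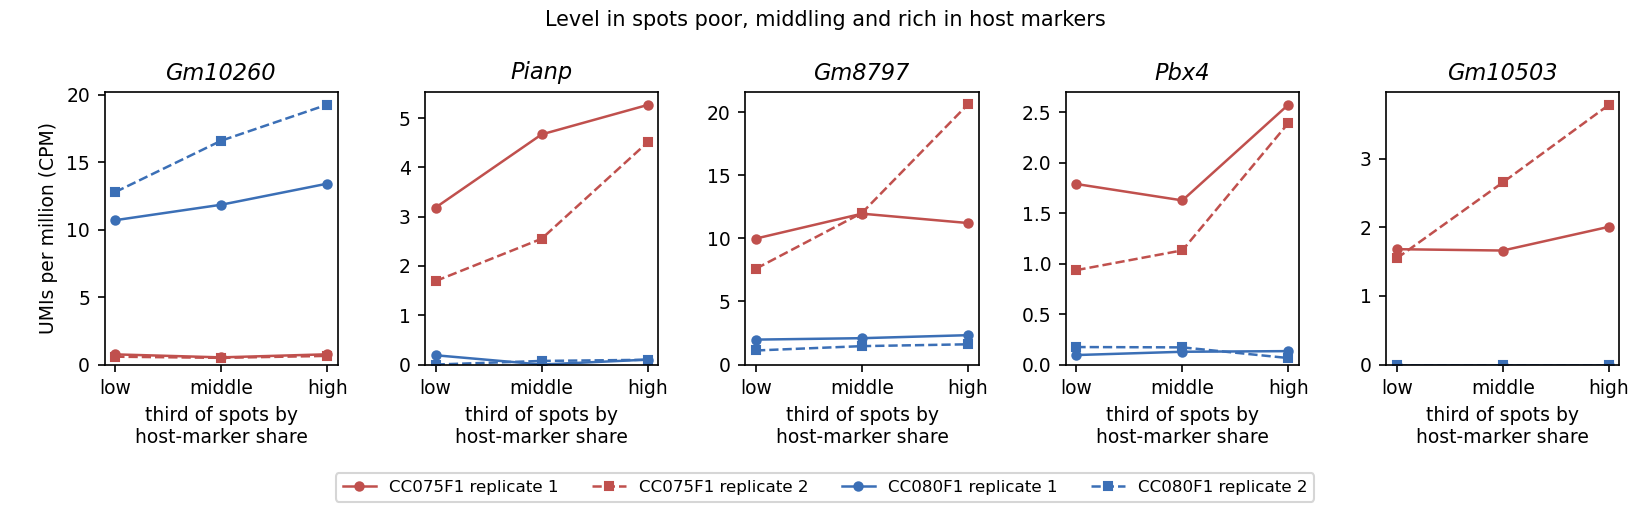
Level of each gene (CPM, axis from 0) in the 3 bins of spots with the lowest, middle and highest share of host-marker UMIs, 1 line for each section, red for CC075F1 and blue for CC080F1, solid for replicate 1 and dashed for replicate 2. In the strain with more UMIs every line ends higher than it starts, for example Gm8797 from 7.60 to 20.6 CPM in CC075F1 replicate 2 and Gm10260 from 12.8 to 19.2 CPM in CC080F1 replicate 2. The CPM values lack the scaling between bins used in the fits.

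**Figure D5:**
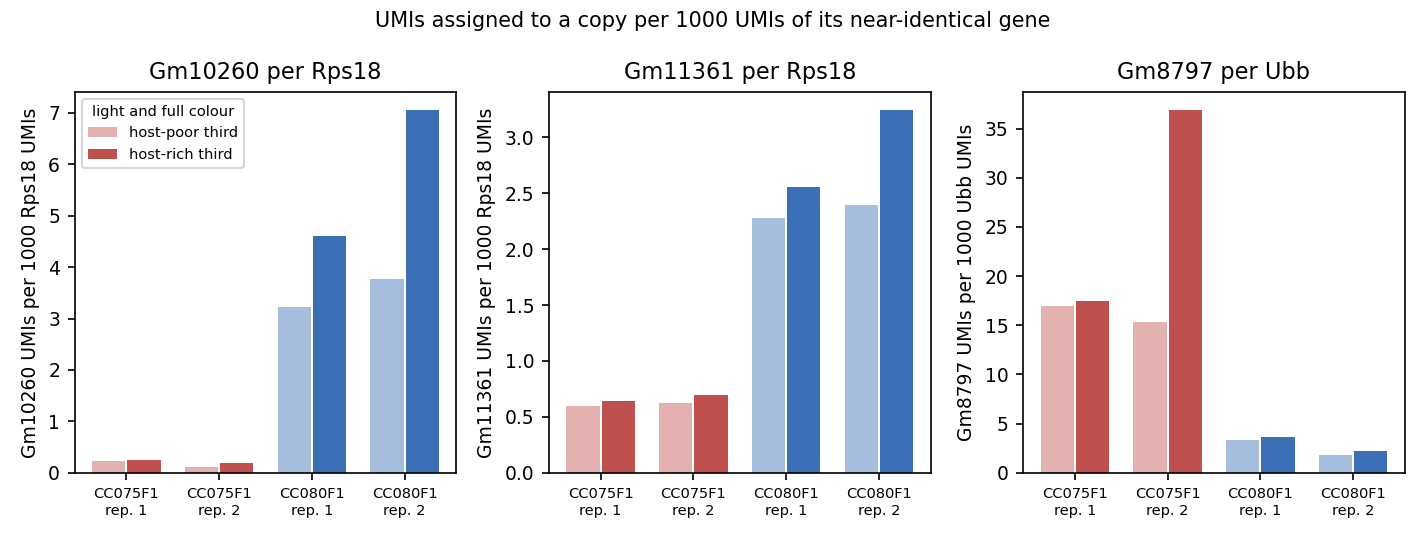
UMIs of Gm10260 and Gm11361 per 1000 Rps18 UMIs and of Gm8797 per 1000 Ubb UMIs (axes from 0) in each section, light bars for the host-poor and full bars for the host-rich bin of spots. The Rps18 copies are both higher in the CC080F1 sections and Gm8797 in the CC075F1 sections, where it reaches 36.9 in the host-rich bin of replicate 2.

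Depth moved with the host ranking. The host-rich bin had fewer UMIs per spot in each section, with means of 29226 against 30936 and 32898 against 56737 in CC075F1 and 32380 against 34332 and 29461 against 38173 in CC080F1. The widest gap was in CC075F1 replicate 2, where the CPM of Gm8797, Gm10503, Pianp and Pbx4 rose most. The part of depth in those contrasts was not tested. The tumor markers could give no matching test: Krt8, Krt18, Krt7 and Krt19 were near 0 (Krt8 at 7 to 25 UMIs a section), which left Shisal2b, and over spots the host and tumor shares were weakly related (Pearson's r from -0.150 to 0.118 in sections of 2709 to 3276 spots). Ranked by these tumor markers, highest against lowest bin, 245 of 14315 genes passed and none of the 5, with log2 fold changes from -0.42 (Pbx4) to 0.21 (Gm10503). So few calls over all genes leave little to read from none among 5. The host bins did not set host against tumor content either. Between the host-poor and the host-rich bin the tumor-marker share went from 0.0158 to 0.0139% and from 0.0213 to 0.0269% in CC075F1. In CC080F1 it went from 0.0114 to 0.0132% and from 0.0277 to 0.0240%. Whether the genes followed tumor content was therefore not settled.

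Which genes were called differed with the host markers used for the ranking. The endothelial markers made up 0.0104 to 0.0192% of the UMIs of a section, so few UMIs set the rank of a spot. Ranked by the 8 endothelial markers alone, 12.3% of 14438 genes were called higher in the endothelial-rich bin and 3 of the 5 genes were among them (edgeR). Gm10503 went from 1.35 to 2.52 CPM and from 1.61 to 3.47 CPM in CC075F1 (log2 fold change 0.81 ± 0.23, SE, edgeR adjusted p = 0.0450). Pianp went from 3.32 to 5.49 CPM and from 2.00 to 4.05 CPM in CC075F1 (0.70 ± 0.20, SE, edgeR adjusted p = 0.0344). The CC080F1 sections held 0 UMIs of Gm10503, and in these bins 2 and 2, and 0 and 2, of Pianp. The calls of Gm10503 and Pianp therefore rest on the 2 CC075F1 sections. Gm8797 went from 9.96 to 13.2 CPM and from 9.70 to 17.0 CPM in CC075F1 and from 1.88 to 2.35 CPM and from 1.29 to 1.34 CPM in CC080F1 (0.33 ± 0.10, SE, edgeR adjusted p = 0.0409). Pbx4 at 0.56 ± 0.21 (SE, edgeR adjusted p = 0.0904) and Gm10260 at 0.21 ± 0.12 (SE, edgeR adjusted p = 0.216) did not pass. The 3 calls lay close to the threshold: none remained without CC075F1 replicate 1, and without CC075F1 replicate 2 Gm10260 passed in their place, while Gm8797 alone remained without CC080F1 replicate 2. Other host markers and depth moved with the ranking, most in CC075F1 replicate 2, where the immune share went from 0.522 to 0.816%, the fibroblast share from 0.0709 to 0.204% and the mean UMIs per spot from 50031 to 36639. The fibroblast share also went from 0.270 to 0.313% and from 0.240 to 0.306% in CC080F1, and their part in the calls was not tested. Ranked by immune markers alone 951 of 14409 genes passed and none of the 5. The log2 fold changes were of similar size or larger for Gm8797 (0.51), Pianp (0.70) and Pbx4 (0.50). Ranked by fibroblast markers alone 793 of 14398 genes passed and none of the 5, with Pianp at 0.56 and Gm8797 at 0.28.

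Strain differences in the host contrast could be estimated for 4 of the genes, Gm10503 having no UMIs in CC080F1. Of 14422 genes tested 0% passed (edgeR), with 147 genes at an unadjusted p below 0.05, and 3 genes passed with DESeq2. Gm10260 and Gm8797 did not pass and were not below 0.05 unadjusted, with edgeR or DESeq2. The differences in log2 fold change (CC075F1 minus CC080F1) were -0.46 ± 0.25 for Gm10260, 0.38 ± 0.40 for Gm8797, 0.74 ± 1.16 for Pianp and 1.33 ± 0.77 for Pbx4 (SE). Those of Pianp and Pbx4 rest on the 9, 6, 11 and 16 UMIs of their CC080F1 sections, and a strain difference was not detectable for them at this depth.

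At the rim of the sections, meaning spots from which a position without tissue could be reached in 3 steps or fewer, the 5 genes were not called different from the interior. Of 15089 genes tested, 1% were called higher at the rim (edgeR), and 0 of these 5, of which Gm8797 had an unadjusted p below 0.05 with edgeR and DESeq2. Gm8797 was higher at the rim in 4 of 4 sections, at 14.5 against 10.5 CPM and 20.2 against 11.1 CPM in CC075F1 and 2.32 against 2.05 CPM and 1.62 against 1.33 CPM in CC080F1 (log2 fold change 0.41 ± 0.10, SE, edgeR adjusted p = 0.0979). Pbx4 was at 3.75 against 1.71 CPM and 2.68 against 1.16 CPM in CC075F1, and at 0.0368 against 0.151 CPM and 0.224 against 0.127 CPM in CC080F1 (0.73 ± 0.36, SE, edgeR adjusted p = 0.315). Without CC080F1 replicate 1, where Pbx4 was lower at the rim, both passed beside 5.26% of all genes, Gm8797 at 0.49 (edgeR adjusted p = 0.0233) and Pbx4 at 1.00 (edgeR adjusted p = 0.0489). Gm10503, Pianp and Gm10260 stood at 0.56, 0.37 and 0.13 on the log2 scale. Col1a1 was higher at the rim in 4 of 4 sections, for example at 519 against 59.4 CPM in CC075F1 replicate 2.

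Spot by spot, none of the 5 closely followed another gene. Over the genes of at least 10 CPM in every section, the highest mean Pearson correlation on log2(CPM + 1), taken in sections with at least 100 UMIs of the gene, was 0.159 for Gm10260 (with Tmsb4x, which encodes thymosin β4, over 2 sections of CC080F1), 0.0910 for Pianp (with Ccl8, a chemokine, over 2 sections of CC075F1), 0.0762 for Gm8797 (again with Tmsb4x, over 4 sections), 0.0684 for Gm10503 (with Cxcl9, a chemokine) and 0.0659 for Pbx4 (with Id3, a transcriptional regulator). The next genes were Ucp2 and Rplp0 for Gm10260, Mgp and Sparc for Pianp, Sparc and Igfbp7 for Gm8797, Tmsb4x and Kif15 for Gm10503, and Egfl7 and Fabp4 for Pbx4. All points of a section share its library and spot depths, and at such counts these weak values are no finding. Among pairs of Pianp, Gm8797, Pbx4 and Gm10503, r lay between -0.0385 and 0.0509 over 18 comparisons in single sections. Gm10260 was not paired with any of them. Gm10260 and Rps18 had r of 0.0808 and 0.0208 in the CC080F1 sections, and Gm8797 and Ubb of 0.0201 and 0.0450 in the CC075F1 sections.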

How the data were processed

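Tumor sections were read from 4 tissue blocks, 2 per strain. The authors aligned reads with Space Ranger 1.3.1 to GRCm38 with GENCODE vM23 annotation and deposited raw UMI counts per gene and spot under tissue, without normalization. A single spot with 0 UMIs was left out. Section totals and their precision are given with the results. Replicates are as labelled. Members and gene lists were chosen with earlier results of these data known.

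UMIs were summed per section, or per bin of spots in a section. The edgeR package 4.0.16, under R 4.3.3, gave quasi-likelihood tests with TMM scaling after filterByExpr, with Benjamini-Hochberg adjustment over all genes and a threshold of 0.05. Each SE of an edgeR fold change is approximate, being its absolute log2 value divided by the square root of the F statistic of its test. With 2 sections against 2, a permutation test of a single value cannot go below p = 0.333, so none was run. Intervals cover counting error only. DESeq2 1.42.0, other scalings, filters, rankings and left-out sections were alternatives. Positions and transcripts came from GENCODE vM21 (50 gene identifiers had no position), and copies from BLAST+ 2.17.0. Named genes were the 5 genes, the PILR and TALE lists, reference genes, the nearest 2 genes on each side and overlapping ones, up to 3 similar transcripts, and the 3 most correlated genes. The fits were tested on simulated data with 200 changed genes, drawn only from genes with higher counts. The strain fit of 15572 genes recovered 84% of 4-fold and 23% of 2-fold changes with 15 false calls among 122. The host-marker fit of 14422 genes recovered 99% and 90% with 22 false calls among 211. In both, false calls were a larger part than the threshold of 0.05. The recovered shares do not carry over to genes with few UMIs, such as Pianp, Pbx4 and Gm10503 in CC080F1.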

Additional observations from a re-analysis of the deposited data

How the results depend on the processing

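Members called in the strain comparison, which chose them, numbered 2 to 5 when a section was left out, and 4 with RLE size factors. The number of genes called in the strain comparison (14) became 40 with library size alone, 480 without a filter on low counts, 194 with DESeq2, 287 with the replicate block, and 11 to 207 with a section left out. List, flanking and copy genes called (0 of 29) became 3, 2 and 2 without a filter, with DESeq2 and with the replicate block, and stayed at 0 with any section left out. Sections of the same replicate number deviated from their strain means with r = 0.17 over 15572 genes, but the labels tie no numbers together, so no pairing was assumed. Scaled by library size alone, all genes had a median log2 fold change of -0.31 between strains and 0.16 in the host comparison.

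Genes called in the host comparison (2374) fell to 951, 793 and 245 when spots were ranked by immune, fibroblast or tumor markers, to 0 with CC075F1 sections only, and ran from 0 to 3250 with a section left out, being 895 without CC075F1 replicate 1 and 0 without either CC080F1 section. Genes of the set called there (0) became 3 in the endothelial ranking and 1 (Gm10260) with CC080F1 sections only, where 2 of the 5 were tested, and 0 to 1 with a section left out. In the endothelial ranking the 3 calls became 0 to 3 with a section left out, an alternative chosen after seeing the data. At the rim, 0 became 0 to 2 with a section left out, while all genes called there (166) became 683 without a filter, 630 with DESeq2, 71 with 5 steps, 271 without spots of other tissue, and 20, 79, 946 and 4 without CC075F1 replicates 1 and 2 and CC080F1 replicates 1 and 2. Genes with a called strain difference of the host contrast (0) became 2 without a filter, 3 with DESeq2, and 790 and 49 without CC075F1 replicates 1 and 2. In the endothelial ranking 3434 genes became 1475 without CC080F1 replicate 2. No alternative run called a strain difference of the host contrast for Gm10260 or Gm8797.

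Signs turned for Gm10260 in the host comparison with fibroblast markers (-0.059) and with CC075F1 sections only (-0.10), and, with spots ranked by tumor markers, for Pianp (-0.053), Gm8797 (-0.054), Pbx4 (-0.42) and Ifi202b (-0.075). The Ubb strain value turned to -0.16 with library size alone. With a section left out, the strain difference of the host contrast ran from -3.77 to 1.82 for Pianp and from -0.13 to 0.85 for Gm8797. The cause of these changes was not tested.

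Shares of positive spots depend on the threshold and depth. At 2 or more UMIs the mean shares were 0.0153 and 9.67% for Gm10260 in CC075F1 and CC080F1, 0.944 and 0% for Pianp, 7.87 and 0.220% for Gm8797, 0.352 and 0% for Pbx4, and 0.510% for Gm10503 in CC075F1. Thinned to 10000 UMIs a spot they were 0.664 and 12.9% for Gm10260, 4.16 and 0.0505% for Pianp, 11.8 and 1.78% for Gm8797, 1.63 and 0.102% for Pbx4, and 2.39% for Gm10503 in CC075F1, in the same order between strains as before.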
